A study of Mus musculus with 5 samples.

Results

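Haemoglobin genes and genes of red cell formation were followed over 3 stages of the mouse kidney and in tissue recovered at 2 times after transplantation of a kidney bud. The 8 genes were the embryonic globins Hbb-y, Hbb-bh1 and Hba-x, the adult globins Hba-a1 and Hbb-b1, and the erythroid genes Alas2, Klf1 and Epb4.2. They were taken by symbol from the authors' gene table and from the scanner files, where 10 probes carry these symbols, and they are 8 of the 24549 named genes on the array. They were chosen with values of these same arrays known, so the differences between stages below are a description and carry no test. Each of the 8 was well above background on at least 1 array, and Hba-a1, Hbb-b1 and Alas2 were on all 5.

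RNA of C57BL/6 mice was hybridised to 5 one-colour Agilent arrays. The 5 groups were the fetal kidney at embryonic stage E13.5, the newborn kidney (P0), the kidney at 8 weeks of age, and the tissue found 2 weeks and 4 weeks after transplantation. The sources used here do not say what the buds were made of, which host received them or where, nor how many animals gave each RNA. Each group is 1 array, so no difference has a replicate check, and no p-value is given.

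Haemoglobin is built from α-like and β-like chains, each carrying heme. The first red cells of the mouse arise in the yolk sac and circulate in the embryo while they still have nuclei; they make the embryonic globins, with Hba-x as the α-like chain and Hbb-y and Hbb-bh1 as the β-like chains. Red cells formed later, in the fetal liver and then in bone marrow and spleen, make the adult chains. Alas2 catalyses the first step of heme synthesis in red cell precursors, Klf1 is a transcription factor that binds CACCC sequences of erythroid promoters, and Epb4.2 (Epb42 in RefSeq) is protein 4.2 of the red cell membrane. The mature red cell of the adult has no nucleus, and young ones keep globin RNA for a time. In bulk tissue, fewer red cells or precursors and less RNA per cell cannot be told apart.

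The sequence before each gene's start is shown because embryonic and adult genes of the same cluster took different courses over these arrays. The lines below give the 120 bases before the start, 5′ to 3′ on the strand of the gene, from RefSeq on GRCm38.p6. Hbb-y lies at chr7:103853208-103853327 (minus strand), Hba-x at chr11:32276480-32276599 (plus), Hba-a1 at chr11:32283552-32283671 (plus) and Alas2 at chrX:150547297-150547416 (plus). Hbb-bt at chr7:103813924-103814043 and Hbb-bs at chr7:103827929-103828048, both on the minus strand, are the adult β genes that C57BL/6 carries. Capitals mark matches on either strand to the CACCC box, the CCAAT box, the GATA-factor sequence GATAA, and the TATA-like sequences ATATAA and ATAAAA. The Alas2 matches to GATAA and ATAAAA overlap, and its CACCC matches are on the opposite strand.
Hbb-y: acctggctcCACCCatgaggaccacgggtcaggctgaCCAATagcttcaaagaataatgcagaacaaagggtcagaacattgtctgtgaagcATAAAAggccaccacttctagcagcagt
Hba-x: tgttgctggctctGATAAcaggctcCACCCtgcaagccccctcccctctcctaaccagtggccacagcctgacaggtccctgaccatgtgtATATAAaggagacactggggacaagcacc
Hba-a1: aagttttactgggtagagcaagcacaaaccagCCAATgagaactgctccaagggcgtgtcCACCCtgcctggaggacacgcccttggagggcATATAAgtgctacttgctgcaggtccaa
Hbb-bt: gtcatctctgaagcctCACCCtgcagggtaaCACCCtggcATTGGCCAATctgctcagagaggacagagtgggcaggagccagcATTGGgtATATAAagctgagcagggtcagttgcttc
Hbb-bs: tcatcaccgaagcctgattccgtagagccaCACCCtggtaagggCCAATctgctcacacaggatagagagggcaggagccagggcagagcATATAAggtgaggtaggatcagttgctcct
Alas2: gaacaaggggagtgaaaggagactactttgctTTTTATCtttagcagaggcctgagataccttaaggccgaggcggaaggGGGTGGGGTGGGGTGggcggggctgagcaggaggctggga

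CACCC was found in each of these 6 windows, and in 31.7% of all 32851 RefSeq windows of this length. CCAAT (21.3% of windows) was found in the windows of Hbb-y, Hba-a1, Hbb-bt and Hbb-bs, at 83, 88, 75 and 76 bases before the start on the gene's own strand, and not in that of Hba-x or Alas2. GATAA (10.5% of windows) was found in the windows of Hba-x, on the gene's own strand, and of Alas2, on the opposite strand. ATATAA (4.47% of windows) lay 28 to 30 bases before the start of Hba-x, Hba-a1, Hbb-bt and Hbb-bs, and Hbb-y had ATAAAA (8.30% of windows) 28 bases before its start. Of the other members, the Klf1 window held a CACCC box, a CCAAT box and a match to GATAA, and the Epb42 window held no match. RefSeq sequence was matched for 6 of the 8 members. These matches are of letters only and are not binding sites.

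The values below are intensities, the background-subtracted signal of a spot, and folds are taken after each array was divided by the 75th percentile of its gene spots, which lay between 1170.2 (8-week kidney) and 1720.1 (P0). Between 60.9% and 69.1% of gene spots were well above background and 0 were saturated. The lowest intensity well above background was between 23.5 and 28.1. Where a gene was well above background on 1 array of a pair only, the dim side was raised to that limit if it lay below it, which makes the fold a lower bound, written "at least". The scanner software's error for member spots well above background was 10 to 21.3% of the signal, which covers the spot but not the animal, the labelling or the slide. Slide 1 held the arrays of the E13.5 kidney and of the 2-week transplant, and slide 2 held the P0 kidney, the 4-week transplant and the 8-week kidney. A difference between groups on different slides cannot be told apart from one between slides. Intensities of different probes are not comparable with each other.

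The labels of tissue and cell type were set against marker lists. Of 8 kidney markers, 7 were well above background in the E13.5 and the 8-week kidney and 8 on each of the other arrays. Their summed level, in units of the array's 75th percentile, was lowest in the transplants: 48.7 at E13.5, 67.6 at P0, 18.1 and 10.3 in the 2-week and 4-week transplants and 317.8 at 8 weeks. Slc34a1 and Umod carry most of the 8-week sum. Against P0, 7 of the 8 were at least 2-fold lower in each transplant. So were 2163 of all 18314 genes compared in the 2-week transplant and 2554 of 18438 in the 4-week transplant. Nphs1 went the other way, with an intensity of 384 at P0, 1362 and 671 in the 2-week and 4-week transplants and 444 at 8 weeks. The part of these kidney marker differences in the globin differences was not tested. Of 11 erythroid markers, 10 were well above background in the E13.5 kidney, 7 at P0, 6 in the 2-week transplant, 5 in the 4-week transplant and 5 in the 8-week kidney. Their sums order the arrays differently, at 175.0, 84.5, 81.0, 183.1 and 8.63, and the member Hba-a1 makes up most of each sum. That list holds 5 of the members. Of its 6 other genes, 5 were well above background at E13.5, 2 at P0, 2 in each transplant and 1 at 8 weeks. These 6 summed to 4.03 at E13.5, 0.516 at P0, 0.582 and 0.463 in the 2-week and 4-week transplants and 1.29 at 8 weeks. Without the members the 4-week transplant was thus the lowest array and not the highest. Slc4a1 carries most of the 8-week sum of these 6.

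The embryonic globins were bright in the E13.5 kidney and were not well above background on the other 4 arrays. Hbb-y, the embryonic ε-like chain, had an intensity of 355368 at E13.5, 19.7 at P0, 13.7 and 15.9 in the 2-week and 4-week transplants, and 5.77 in the 8-week kidney. Hba-x, the embryonic ζ chain, had 36273 at E13.5, 10.9 at P0, 7.41 and 7.10 in the 2-week and 4-week transplants, and 15.9 in the 8-week kidney. Hbb-bh1, the other embryonic β-like chain, had 23745 at E13.5, then 20.0 at P0, 16.5 and 15.7 in the 2-week and 4-week transplants, and 26.6 in the 8-week kidney. Only the E13.5 array was high for any of them, and the order among the other 4 arrays lies within background and has no meaning. The brightest Hbb-y spot at E13.5 had a raw signal at 54.6% of the saturation value, so these differences are not capped by the scanner.

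As folds, Hbb-y was at least 14193-fold lower at P0 than at E13.5, at least 9139-fold lower at 8 weeks, and at least 15997-fold and 13970-fold lower in the 2-week and 4-week transplants. Its second probe gave bounds of 21381, 13766, 24099 and 21045 in the same order, so both probes of the gene fell on the same side. For Hba-x the bounds were 1449 (P0), 933 (8 weeks), 1633 (2-week transplant) and 1426 (4-week transplant). For Hbb-bh1 they were 948, 611, 1069 and 933. These comparisons share the E13.5 array. The bounds differ between genes and arrays with the limit of detection and the E13.5 signal, so they do not rank the genes or the groups.

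**Figure D1:**
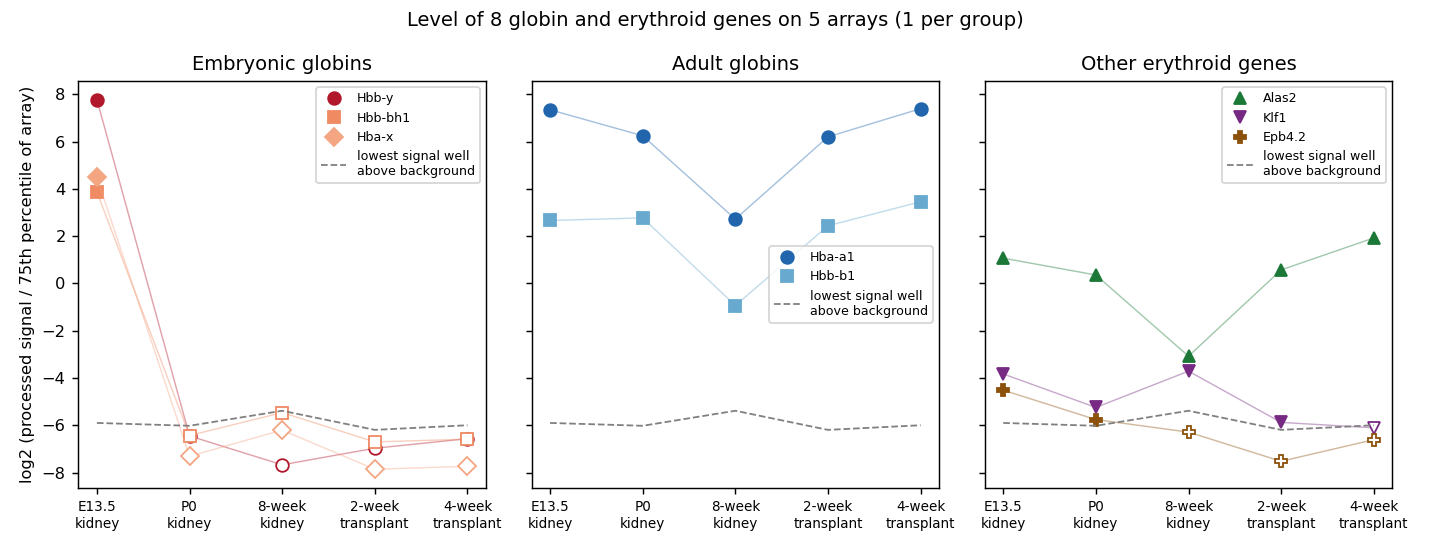
Log2 level of the 8 genes on each of the 5 arrays (log2 of intensity over the 75th percentile of that array), 1 array per group, in panels for the embryonic globins, the adult globins and the erythroid genes. Filled points were well above background, open points were not, and the dashed line is the lowest signal well above background; the embryonic globins are filled at E13.5 only, while Hba-a1, Hbb-b1 and Alas2 are filled on all 5 arrays and lowest in the 8-week kidney.

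The adult globins were bright in the E13.5 and P0 kidneys and in both transplants, and lowest in the 8-week kidney. Hba-a1, an adult α chain, had an intensity of 263058 at E13.5, 130496 at P0, 125978 and 252429.9 in the 2-week and 4-week transplants, and 7724 in the 8-week kidney. Hbb-b1, an adult β chain, had 10269 at E13.5, 11753 at P0, 9293 and 16512 in the 2-week and 4-week transplants, and 614 in the 8-week kidney. The 8-week kidney stood apart from the other 4 arrays for both genes. It was 24.6-fold lower than E13.5 for Hba-a1 and 12.1-fold lower for Hbb-b1, and 11.5-fold and 13.0-fold lower than P0.

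Among the other 4 arrays Hba-a1 and Hbb-b1 each varied by at most 2.28-fold. The adult globin Hbb-b2, given below with the other globin genes, varied more, with a log2 difference of -1.98 between the 2-week transplant and E13.5. P0 against E13.5 was 2.14-fold lower for Hba-a1 and 1.08-fold higher for Hbb-b1, the latter less than the 10% software error of each spot. The 2-week transplant was 2.21-fold and 1.17-fold lower than E13.5. The second of these has no settled direction, since the log2 difference of Hbb-b1 was -0.23 here and 0.06 under quantile normalization. The 4-week transplant against E13.5 was 1.03-fold higher for Hba-a1, a log2 difference of 0.05 that became -0.06 without scaling between arrays, and 1.73-fold higher for Hbb-b1. Under normexp background correction the Hba-a1 difference was 0.77. The 2-week transplant and P0 were 1.03-fold apart for Hba-a1, a log2 difference of -0.05 that was 0.56 under quantile normalization, so neither pair of neighbours has a settled order.

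Set against the adult kidney, both transplants were high in adult globin. The 2-week transplant was 11.1-fold higher than the 8-week kidney for Hba-a1 and 10.3-fold higher for Hbb-b1, and the 4-week transplant was 25.4-fold and 20.9-fold higher. In these comparisons 11.8% and 11.7% of all genes compared were at least 4-fold higher. The 4-week transplant was 2.28-fold (Hba-a1) and 2.02-fold (Hbb-b1) higher than the 2-week transplant, where 9.09% of genes were at least 2-fold and 2.44% at least 4-fold higher. These 2 transplants lie on different slides. Within slide 2, the 4-week transplant was 2.21-fold and 1.61-fold higher than P0.

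The embryonic and adult globins were then set against each other within each array, which removes any scaling between arrays. From E13.5 to P0 the median log2 difference of the 3 embryonic globins was lower than the mean of the 2 adult globins by at least 1028-fold (log2 -10.01), and the adult mean itself moved by -0.50. For the 2-week transplant against E13.5, a pair on 1 slide, the embryonic globins were lower relative to the adult ones by at least 1016-fold (log2 -9.99), with the adult mean at -0.68. For the 4-week transplant the relative difference was at least 1908-fold (log2 -10.90), with the adult mean at 0.42. In the 8-week kidney it was at least 54.1-fold (log2 -5.76), with the adult mean at -4.11. In the other comparisons, of P0, the transplants and the 8-week kidney with each other, the embryonic globins were not well above background on either side and no relative value exists.

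**Figure D2:**
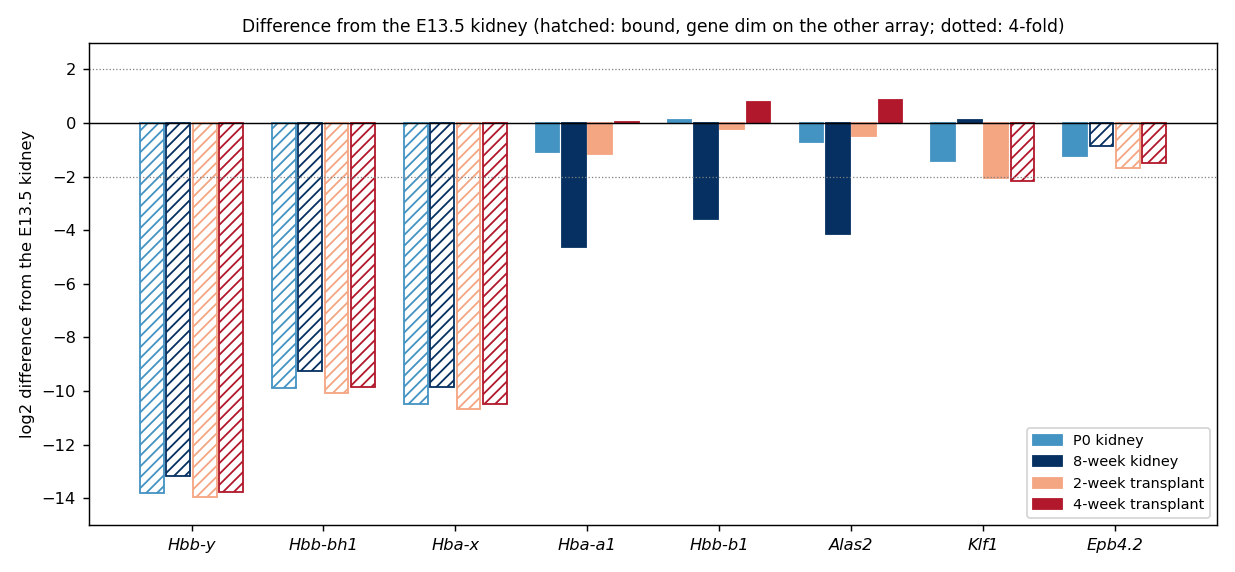
Log2 difference from the E13.5 kidney for each of the 8 genes in the P0 kidney, the 8-week kidney and the 2-week and 4-week transplants, 1 array per group. Hatched bars are bounds, where the lower array was not well above background, and dotted lines mark 4-fold; the embryonic globins are past 4-fold in each of the 4 comparisons, and the adult globins and Alas2 in that with the 8-week kidney only.

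Counted over the 8 members, 3 were at least 4-fold lower at P0 than at E13.5 (1.83% of all genes compared were), 6 at 8 weeks (12.6%), 4 in the 2-week transplant (5.41%) and 4 in the 4-week transplant (6.87%). No member was 4-fold higher in these comparisons, where 6.23%, 14.1%, 11.3% and 12.7% of all genes were. The 3 at P0 were the embryonic globins, to which 8 weeks added Hba-a1, Hbb-b1 and Alas2, and the transplants added Klf1, which is past 4-fold there under some processings only. Between the 8-week and the P0 kidney 5 members could be compared, and 3 were at least 4-fold lower (9.35%) and 0 higher (8.93%). Of 5 compared between the 4-week transplant and P0, 0 were 4-fold higher (8.65%) or lower (4.36%), and of 4 compared between the 2 transplants, 0 were 4-fold higher (2.44%) or lower (1.02%). At 2-fold, 6 members were lower at P0 than at E13.5 (11.9%), 1 was higher in the 8-week than the P0 kidney (23.6%), 2 in the 4-week transplant than at P0 (19.2%) and 3 in the 4-week than the 2-week transplant (9.09%). Because the members were chosen on these arrays, nothing is read from these counts.

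Alas2 followed the adult globins. Its intensity was 3403 at E13.5, 2206 at P0, 2552 and 5714 in the 2-week and 4-week transplants, and 139.0 in the 8-week kidney. The 8-week kidney was thus 17.7-fold lower than E13.5 and 10.8-fold lower than P0, and the 4-week transplant was the highest array, 1.81-fold above E13.5 and 2.55-fold above the 2-week transplant. Relative to the mean of the adult globins, Alas2 moved by 1.03-fold to 1.57-fold over the 10 pairs of arrays, the smallest between the 8-week and E13.5 kidneys and the largest between the 4-week transplant and P0. Alas2 is X-linked. The Y-linked Ddx3y had an intensity of 6.06 at P0 and 648 to 1438 on the other arrays, and Xist, which marks the inactive X, had 6.59 in the 8-week kidney and 204.9 to 973 on the others; for these 2 kidneys, a difference of sex cannot be told apart from one of age.

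Klf1 did not follow the globins. It was dim throughout, with an intensity of 114.4 at E13.5, 45.5 at P0, 29.2 in the 2-week transplant, 21.9 in the 4-week transplant (not well above background) and 89.6 in the 8-week kidney. Its highest arrays were thus the E13.5 and the 8-week kidney, and the lowest were the transplants. Klf1 was 2.67-fold lower at P0 than at E13.5, 4.14-fold lower in the 2-week transplant and at least 4.50-fold lower in the 4-week transplant. Without scaling between arrays the 2-week value was 3.91-fold, and under normexp with negative controls the transplants were 2.13-fold and at least 1.95-fold lower. Under normexp without them P0 was 6.97-fold lower. That last value rests on a mean background of -992 estimated for E13.5, against 20.7 to 27.5 on the other arrays, so it is no measure of Klf1. The 8-week kidney was 2.89-fold higher than P0 on the same slide, where the adult globins were 12.2-fold lower, a gap of 35.4-fold between Klf1 and the adult globins. Against E13.5 the 8-week value was 1.08-fold higher, and its log2 difference of 0.12 became -0.35 without scaling between arrays. The spot error of Klf1 was 11.7% at E13.5, 16.8% at P0, 21.2% in the 2-week transplant and 12.7% at 8 weeks, and whether this single probe reads only Klf1 in the adult kidney was not tested.

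Epb4.2 was near the limit of detection. Its brighter probe had an intensity of 71.1 at E13.5 and 31.9 at P0, 2.37-fold lower, and was not well above background in the 2-week transplant (9.36), the 4-week transplant (15.5) and the 8-week kidney (15.02). These 3 arrays were at least 3.20-fold, 2.80-fold and 1.83-fold lower than E13.5. The other Epb4.2 probe was not well above background on any of the 5 arrays.

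The other globin genes of both clusters gave 6 named genes with probes. Hba-a2, the second adult α gene, had an intensity of 540668 at E13.5, 389882 at P0, 408490 and 520208 in the 2-week and 4-week transplants, and 35251 at 8 weeks. Hbb-bt, an adult β gene of this strain, had 185168 at E13.5, 108403 at P0, 97536 and 179461 in the 2-week and 4-week transplants, and 5709 at 8 weeks. Hbb-b2 had 82957 at E13.5, 61349 at P0, 22217 and 42347 in the transplants, and 3234 at 8 weeks. These 3 had the 8-week kidney as their lowest array, 11.1-fold (Hba-a2), 23.4-fold (Hbb-bt) and 18.5-fold (Hbb-b2) below E13.5. The adult globin copies are nearly identical, and the 120 bases before Hba-a1 and Hba-a2 share an unbroken run of 117, against 14 for Hbb-bt and Hbb-bs. The names Hbb-b1 and Hbb-b2 belong to the haplotype of other strains, so which transcript each adult globin probe reads in C57BL/6 is uncertain. The embryonic-region gene Hbb-bh2 was not well above background on any array, Hbq1a was in the 4-week transplant only (59.3), and Hbq1b ranged from 25.3 (2-week transplant, not well above background) to 103.6 (E13.5).

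The lists of erythroid transcription factors, red cell membrane and other erythroid genes held 39 genes well above background on at least 1 array. Of these, 22 had their highest level at E13.5, 1 at P0, 4 and 5 in the 2-week and 4-week transplants and 7 at 8 weeks. As shares these were 56.4%, 2.56%, 10.3%, 12.8% and 17.9%, against 30.8%, 7.73%, 13.7%, 15.8% and 31.9% of all genes in the same order. Among those not highest at E13.5, Hemgn, Dmtn and Epb41 were highest at 8 weeks, and Lmo2 and Lyl1 in the 2-week transplant. Ahsp, the chaperone of free α chains, had an intensity of 3776 at E13.5, 516 at P0, 226.4 and 262.6 in the 2-week and 4-week transplants, and 7.96 (not well above background) at 8 weeks. It was 7.78-fold lower at P0 than at E13.5, 17.6-fold and 13.4-fold lower in the transplants and at least 97.1-fold lower at 8 weeks. Ahsp was thus lower in the transplants than at E13.5, where Hba-a1 and Hbb-b1 were within 2.21-fold of E13.5. Hbb-b2 was also lower there, with log2 differences of -1.98 and -0.86 in the 2-week and 4-week transplants. Gata1, the master regulator of red cell genes, had 176.8 at E13.5 and was not well above background on the other 4 arrays, at least 4.55-fold to 7.96-fold lower. Gfi1b, a repressor needed for red cells and megakaryocytes, had 105.9 at E13.5 and was likewise not well above background elsewhere.

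Of 13 erythroid transcription factors, all compared, 2 were at least 4-fold lower at P0 than at E13.5, 5 at 8 weeks, 4 in the 2-week transplant and 3 in the 4-week transplant (1.83%, 12.6%, 5.41% and 6.87% of all genes compared). Only Sox6, at 8 weeks, was 4-fold higher, where 6.23%, 14.1%, 11.3% and 12.7% of all genes were in the same order. The medians of the factors' log2 differences were -0.71, -1.67, -0.49 and -1.15, against -0.12, -0.03, -0.11 and -0.02 over all genes compared. Myb, a factor of early blood cells, had intensities of 1059.8 at E13.5 and 779 at P0, 85.3 and 64.8 in the transplants and 13.3 at 8 weeks, which is 13.1-fold and 15.2-fold lower in the transplants than at E13.5. Bcl11a, a repressor of embryonic globins, had 810 at E13.5, 227 at P0, 153 and 241 in the 2-week and 4-week transplants and 46.4 at 8 weeks.

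For the red cell membrane list, 2 of 14 genes compared were at least 4-fold lower at P0, 4 of 15 at 8 weeks, 3 of 15 in the 2-week transplant and 4 of 15 in the 4-week transplant, where 1.83%, 12.6%, 5.41% and 6.87% of all genes were. None was 4-fold higher, where 6.23%, 14.1%, 11.3% and 12.7% of all genes were. The medians of the membrane list were -0.97, -0.29, -1.36 and -0.79. Rhd, a Rhesus membrane protein, had an intensity of 581 at E13.5, 58.0 at P0, 43.2 and 47.4 in the transplants and 6.19 (not well above background) at 8 weeks. Kel, the Kell blood group protein, had 399 at E13.5 and 154.4 at P0, 46.3 in the 2-week transplant, and was not well above background in the 4-week transplant and at 8 weeks. Slc4a1, the anion exchanger of red cells that acid-secreting cells of the collecting duct also make, had 2470 at E13.5, 318 at P0, 735 and 378 in the transplants, and 1468 at 8 weeks. The 8-week kidney was thus 6.78-fold above P0 for Slc4a1, where the adult globins were lower.

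The other genes of heme synthesis took courses unlike that of Alas2. Of 11 compared, 0 were 4-fold lower than E13.5 on any of the other 4 arrays, 3 were 4-fold higher at 8 weeks and 1 in the 4-week transplant. Over all genes 12.6% were lower and 14.1% higher at 8 weeks, and 6.87% lower and 12.7% higher in the 4-week transplant. At P0 1.83% were lower and 6.23% higher, and in the 2-week transplant 5.41% lower and 11.3% higher. The medians of the heme list were -0.05 at P0, 0.77 at 8 weeks, -0.53 in the 2-week and -0.10 in the 4-week transplant. Alas1, the form of the first enzyme used outside red cells, had an intensity of 8524 at E13.5, 8862 at P0, 21983 and 73269.7 in the 2-week and 4-week transplants, and 29619.9 at 8 weeks, 9.26-fold above E13.5 in the 4-week transplant. Fech, which inserts iron into heme, and Cpox, an earlier step, were 4.19-fold and 6.61-fold higher at 8 weeks than at E13.5. These enzymes serve all heme-making cells.

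Of 8 genes of iron uptake and erythropoietin signalling, 0 were 4-fold apart between P0 and E13.5, where 6.23% of all genes were higher and 1.83% lower. At 8 weeks 1 was higher, in the 2-week transplant 2 were higher and 1 lower, and in the 4-week transplant 2 were higher, beside 14.1%, 11.3% and 12.7% of all genes higher and 5.41% lower in the 2-week transplant. Tfr2, a transferrin receptor of liver and red cell precursors, was 9.01-fold and 6.09-fold higher in the 2-week and 4-week transplants than at E13.5, and Tfrc, the main transferrin receptor, was 4.94-fold lower in the 2-week transplant. In the list of other erythroid genes, 2 of 11 were 4-fold lower than E13.5 at P0, 3 at 8 weeks and 2 in each transplant, with 0 higher. Over all genes 1.83%, 12.6%, 5.41% and 6.87% were lower and 6.23%, 14.1%, 11.3% and 12.7% higher, with the 2-week transplant before the 4-week transplant. Trim10, a gene of late red cell maturation, was among the listed genes lower in each of the 4 comparisons.

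**Figure D3:**
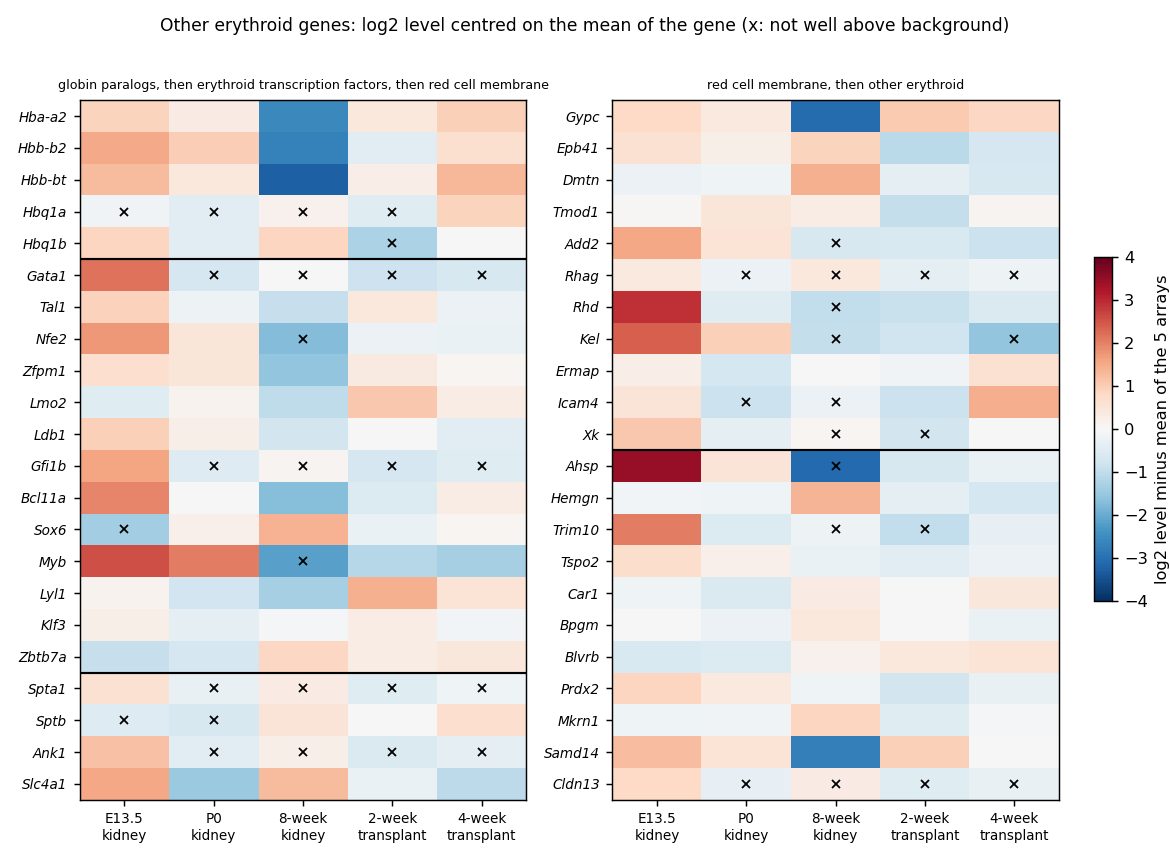
Heat map of log2 levels of the other globins and of the erythroid transcription factor, red cell membrane and other erythroid lists on the 5 arrays, centred on each gene's mean, 1 array per group, for genes well above background on at least 1 array; a cross marks a gene not well above background, whose value is set no lower than the lowest signal well above background. Ahsp, Rhd and Gata1 are highest at E13.5, and Hba-a2, Hbb-b2 and Hbb-bt are lowest in the 8-week kidney.

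Markers of other blood cells moved between the same arrays. The 4 macrophage genes summed to 3.44 times the array's 75th percentile at E13.5, 5.91 at P0, 48.2 and 32.3 in the 2-week and 4-week transplants and 13.98 at 8 weeks. For the 5 neutrophil genes the sums were 0.755, 6.58, 8.85, 45.6 and 1.78 in the same order, with Ngp not well above background at E13.5 and 8 weeks. For the 5 platelet genes they were 1.77, 3.49, 10.05, 5.66 and 0.497, with Gp9 and Ppbp not well above background at 8 weeks. The neutrophil and platelet sums were thus higher in both transplants and at P0 than in the 8-week kidney, but a few genes carry them. Csf1r likewise makes up most of each macrophage sum. Its intensity was 15185 at 8 weeks and 7604 at P0. Adgre1, C1qa and Cd68 went the other way, with 241.3, 516 and 416 at 8 weeks and 600, 1141 and 825 at P0. Pf4 makes up most of the platelet sum, with intensities of 2431 at E13.5, 5791 at P0, 16062 and 7738 in the transplants and 388 at 8 weeks, while Gp9 and Ppbp were higher at E13.5 (160.6 and 170.8) than at P0 (54.3 and 40.5) and Itga2b was highest at 8 weeks (121.8). S100a8 and S100a9 make up most of the neutrophil sum in the 4-week transplant, with 15077 and 51583, while Elane was highest at 8 weeks (1539). The 4 general leukocyte genes summed to 1.69, 1.48, 14.3, 14.7 and 3.29 in the same order. Their part in the globin differences was not tested. The T and B cell genes summed to 1.04 to 1.64 and the 5 genes of blood progenitors to 10.46 to 33.7 over the 5 arrays. Cd34 and Meis1 carry most of the progenitor sum at E13.5, and Cd34 and Hlf at 8 weeks. Meis1 and Hlf went opposite ways, from intensities of 26940 and 134.3 at E13.5 to 423 and 6795 at 8 weeks.

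The genes with the most similar course over the 5 arrays were found by the root mean square distance of centred log2 levels over 19350 genes. Closest to the mean of the adult globins was Hbb-bt, at 0.15 log2 units, then Spaca9 (0.19), Mmp15 (0.21), Cacna2d1 (0.23) and Slc43a1 (0.27), with the member Alas2 at 0.22. Closest to Alas2 were Hbb-bt (0.28), Ngfr (0.32), Mmp15 (0.34), Spaca9 (0.35) and Nr4a2 (0.36). Hba-a1 and Hbb-b1 each lie 0.21 from their own mean. For the embryonic globins, whose median course is that of Hba-x, the nearest genes were Actc1 (1.62), Crh (1.87), Crabp1 (1.95), Myh3 (1.97) and Lin28b (2.09), with the members Hbb-bh1 at 0.24 and Hbb-y at 1.32. These distances depend on the detection limit, at which the embryonic globins lie on 4 arrays. With 5 points many genes can lie near any course, and the points share the array and its scaling.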

How the data were processed

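RNA of 5 mouse tissues was measured on 1 one-colour array each, so no group had a replicate. Intensities in the deposited scanner files had background subtracted with Agilent's Feature Extraction software, version 10.7.3.1, per the file headers. The authors' deposited gene table holds log2 values, of which 99.6% were within 0.01 of the log2 processed signal centred on each row's median, with no shift by a percentile, although its title line names one. The median of its columns was 0.05 for E13.5, -0.08 for the 4-week transplant and 0 for the other 3.

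Each processed intensity was divided by the 75th percentile of its array's gene spots and put on the log2 scale (42573 spots after outliers flagged by the scanner software were left out). Replicate spots were averaged, and each gene was represented by whichever probe had the highest mean level. Of 39414 probes, 33807 were named, 31781 of them through RefSeq gene identifiers. Hbb-bs has no named probe. A pair of arrays was compared for genes well above background on at least 1 of them. A difference counted from 4-fold, and from 2-fold where said. No test was possible. The members and gene lists were chosen with earlier results of these data known; every member is named with its values, list genes at least 4-fold apart may be named, and the 5 nearest genes are named for likeness. Only the comparison of a pair of arrays, with its bounds, was tested on simulated data. The alternatives used limma 3.58.1 in R 4.3.3 for normexp (offset 50), and Python 3.11.15 with numpy 2.4.6 and pandas 2.3.3 elsewhere. The number of arrays limits the precision.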

Additional observations from a re-analysis of the deposited data

How the results depend on the processing

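The single array per group limits every comparison, slide those between arrays of different slides, and sex those with the P0 or the 8-week kidney. No fit without an array was made, since each would lose a group. No paired analysis was possible because each group has 1 array. No embryonic minus adult globin shift changed its direction under the alternatives run, while a count has no direction to change. The count of members at least 4-fold lower at P0 than at E13.5 was 3, and was 5 under normexp and 6 at 2-fold. The count of 5 rests on the background that normexp estimated for E13.5, given below. At 2-fold, 1 member was higher in the 8-week than the P0 kidney, 3 in the 4-week than the 2-week transplant and 2 in the 4-week transplant than at P0, against 0 at 4-fold in each. The count lower in the 2-week transplant than at E13.5 went from 4 to 3 without scaling between arrays, under normexp with negative controls and with the percentile over probes detected on all arrays, and that of the 4-week transplant from 4 to 3 under the last 2 of these. The other counts were within 1.5 times the main count (67 of 70 for higher, 68 of 70 for lower). For higher, each of these 67 was 0 against a main count of 0.

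The embryonic minus adult globin shift from E13.5, in the order P0, 8-week kidney, 2-week and 4-week transplant, was -7.77, -3.74, -7.57 and -8.54 under normexp, and -8.06, -3.92, -7.92 and -8.83 under normexp with negative controls. Under quantile normalization it was -9.78, -5.69, -10.40 and -11.28. Without the filter on dim probes, and equally in the authors' deposited table, it was -11.29, -6.58, -11.65 and -12.63. The remaining 12 of 32 values could not change. They came from no scaling between arrays and from the percentile over probes detected on all arrays, which cancel in this difference. The rest came from the mean over probes, where Hba-x, which sets the embryonic median, and both adult globins have a single probe each. The bounds rest on the detection limit, and normexp estimated a mean background of -992 for E13.5 and of 20.7 to 27.5 for the others. Each value under normexp without negative controls against E13.5 thus rests on an estimate unlike those of the other arrays. Dim genes such as Klf1 are the most exposed to it. Without scaling between arrays the median over all genes of the 8-week against the E13.5 kidney was -0.50 in place of -0.03. Single members without a settled direction were Klf1 at 8 weeks against E13.5 (0.12, and -1.77 under normexp), Hbb-b1 in the 2-week transplant against E13.5 (-0.23, and 0.35 under normexp), Hba-a1 in the 4-week transplant against E13.5 (0.05, and -0.06 without scaling) and Hba-a1 in the 2-week transplant against P0 (-0.05, and 0.56 under quantile normalization). Apart from normexp, Klf1 also changed sign without scaling and Hbb-b1 under quantile normalization, as given above.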
